A study of Mus musculus with 5 samples.

Results

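The genes of 8 voltage-gated calcium channel alpha-1 subunits (Cacna1a, Cacna1b, Cacna1c, Cacna1d, Cacna1e, Cacna1g, Cacna1h and Cacna1i) were followed in mRNA sequencing of mouse brain, as 8 of the 47729 genes in the count table. They were taken by symbol from a list of pore-forming calcium channel genes, and all 8 passed the filter on low counts. Each library came from the right brain hemisphere of a male mouse of the inbred strain C57BL/6, aged 5 months. No treatment or mutation is named in the labels. The 5 libraries form 1 group, so genes were compared with each other within a brain and brains were compared with each other. The libraries are called animals 1 to 5, although the labels leave unsaid whether they came from different mice. A p-value here reflects only how much these libraries differ, and that spread may be technical. Library depth ran from 13184234 to 15570064 counts.

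Voltage-gated calcium channels open when the membrane is depolarised and let calcium into the cell, where it drives transmitter release, gene expression and firing. The alpha-1 subunit forms the pore and the voltage sensor and gives each channel its name. High-voltage-activated channels, which comprise the L-type and the P/Q-, N- and R-types, assemble with beta and alpha2delta subunits, whereas the low-voltage-activated T-type channels open near the resting potential and can work as the alpha-1 subunit alone. In the brain, P/Q- and N-type channels are known for triggering release at nerve terminals, L-type channels for signalling from the cell body and dendrites to the nucleus, and T-type channels for burst firing, for example in the thalamus.

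The 8 genes are related in sequence, and their counts can only be separated where their transcripts differ. Of all pairs of members, Cacna1g and Cacna1i shared the longest identical run of coding sequence, 68 bases. The run is shown for the T-type genes, with the closest window of Cacna1h and its differing bases in capitals. It lies within 1 exon of each gene, at chr11:94443187-94443254 (minus strand), chr15:80369688-80369755 (plus strand) and chr17:25388574-25388641 (minus strand) of GRCm38. All sequences are from the GENCODE M21 transcripts, 5′ to 3′.
Cacna1g: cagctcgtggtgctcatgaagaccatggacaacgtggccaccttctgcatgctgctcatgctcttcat
Cacna1i: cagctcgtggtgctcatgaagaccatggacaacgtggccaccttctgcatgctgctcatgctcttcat
Cacna1h: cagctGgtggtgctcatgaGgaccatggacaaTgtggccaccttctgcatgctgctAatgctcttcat
Cacna1h differed at 4 of these 68 bases. The L-type pair Cacna1c and Cacna1d shared at most 43 bases, at chr6:118654366-118654408 and chr14:30099154-30099196 (both minus strand).
Cacna1c: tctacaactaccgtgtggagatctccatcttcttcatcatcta
Cacna1d: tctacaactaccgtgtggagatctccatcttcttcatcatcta
Among the P/Q-, N- and R-type genes, Cacna1a (chr8:84533418-84533452, plus strand) and Cacna1b (chr2:24721353-24721387, minus strand) shared 35 bases, from which Cacna1e (chr1:154561776-154561810, minus strand) differed at 2.
Cacna1a: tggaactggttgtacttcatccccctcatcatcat
Cacna1b: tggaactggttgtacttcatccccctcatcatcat
Cacna1e: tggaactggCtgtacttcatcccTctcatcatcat

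Identical stretches long enough to hold a word of 50 bases were found only within the T-type genes. Of the words of 50 bases in their annotated transcripts, 0.182% of those of Cacna1g, 0.201% of Cacna1i and 0.0102% of Cacna1h occurred in another member, and none of those of the other 5 genes did. With any other annotated gene included, the share was highest for Cacna1d (4.18%, all with Chdh) and Cacna1a (2.50%, all with Gm16183). Those genes lie on the opposite strand and cover 4.67% of the exon bases of Cacna1d and 3.81% of those of Cacna1a, and Tpsg1 covers 1.62% of those of Cacna1h. The strand setting of the counting is not given in the sources used here, so reads from these overlaps could belong to either gene.

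All 8 genes were expressed, in an order led by the P/Q-, N- and R-type group. Levels are given as RPKM, in which the reads of a gene are divided by its length in kilobases and by the total of their own library. Cacna1e (ENSMUSG00000004110, GRCm38 chromosome 1, 154390731 to 154884501), the pore of R-type channels, had the highest mean at 18.7 ± 1.15 RPKM. Its values were 18.5, 20.3, 18.6, 17.1 and 18.7 in animals 1 to 5, highest in animal 2 and lowest in animal 4. Errors are SDs with n = 5 wherever ± is written. Cacna1a (ENSMUSG00000034656, chromosome 8, 84388440 to 84640246), the pore of P/Q-type channels that trigger release at many central synapses, followed at 16.8 ± 0.736 RPKM, with 17.7, 16.9, 16.1, 15.99 and 17.3 in animals 1 to 5. Cacna1b (ENSMUSG00000004113, chromosome 2, 24603887 to 24763152), the pore of N-type channels, stood at 16.3 ± 1.18 RPKM, with 16.9, 18.003, 16.2, 15.1 and 15.5. The values of Cacna1a and Cacna1b overlapped, and so did those of Cacna1a and Cacna1e.

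The T-type genes spanned the middle of the order. Cacna1i (ENSMUSG00000022416, chromosome 15, 80287238 to 80398279), a T-type pore with slow kinetics, led them at 15.4 ± 0.830 RPKM, with 16.8, 15.0, 15.3, 14.8 and 14.9 RPKM in animals 1 to 5. Animal 1 stood above the others, which lay close together. Cacna1g (ENSMUSG00000020866, chromosome 11, 94408391 to 94474198), known for burst firing of thalamic relay neurons, stood at 12.4 ± 0.648 RPKM, with 12.8, 13.2, 12.4, 11.7 and 11.8. Cacna1h (ENSMUSG00000024112, chromosome 17, 25374285 to 25433783), a T-type pore also known from pain-sensing neurons, was the lowest T-type gene at 7.94 ± 0.552 RPKM, with 8.84, 7.76, 7.55, 7.48 and 8.06. The ranges of the 3 T-type genes did not overlap.

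The L-type genes were lowest. Cacna1c (ENSMUSG00000051331, chromosome 6, 118587240 to 119196418), the main L-type pore of brain and heart, stood at 7.18 ± 0.469 RPKM, with 7.46, 7.81, 7.18, 6.75 and 6.70 in animals 1 to 5. Cacna1d (ENSMUSG00000015968, chromosome 14, 30039939 to 30491455), an L-type pore that opens at less depolarised potentials, stood at 7.13 ± 0.498 RPKM, with 7.21, 7.77, 7.08, 6.38 and 7.21. The ranges of these L-type genes overlapped each other and that of Cacna1h.

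**Figure D1:**
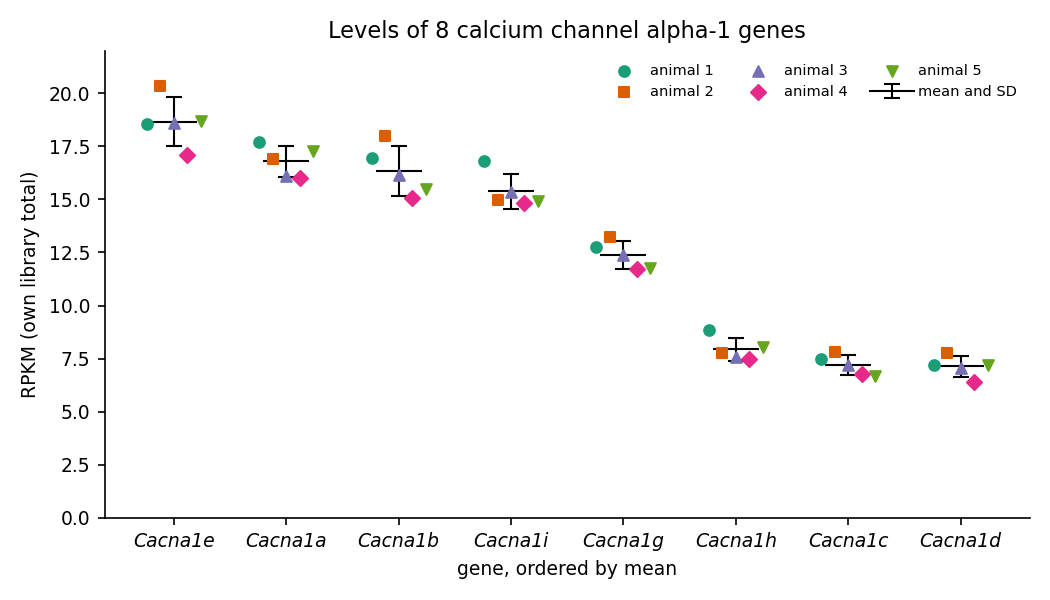
RPKM of each alpha-1 gene (vertical axis) in the 5 animals (coloured symbols), with the mean and SD as black bars; genes are ordered by mean along the horizontal axis. The means run from 18.7 RPKM for Cacna1e to 7.13 for Cacna1d, with a step between Cacna1g (12.4) and Cacna1h (7.94).

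The order was tested within each animal for all 28 pairs of members, as the log2 ratio of RPKM plus 0.1, by exact sign flipping, two-sided. With 5 animals the smallest p is 0.063, so no pair can pass 0.05. In 24 of the 28 pairs the same gene was higher in all 5 animals, each with that smallest p and a value of 0.0729 after Benjamini-Hochberg adjustment over the 28 pairs. The 4 exceptions were Cacna1a against Cacna1b, Cacna1h against each L-type gene, and Cacna1c against Cacna1d. Among neighbours in the order, Cacna1e exceeded Cacna1a by 1.11-fold (log2 ratio 0.15 ± 0.083, higher in 5 of 5 animals). Cacna1a and Cacna1b were not separated (0.042 ± 0.093, higher in 3 of 5 animals, exact p = 0.50). Cacna1b lay above Cacna1i in 5 of 5 animals, but by a mean log2 ratio of 0.085 that was smaller than its SD of 0.10. Cacna1i exceeded Cacna1g by 1.24-fold (0.31 ± 0.081) and Cacna1g exceeded Cacna1h by 1.55-fold (0.63 ± 0.10), each in 5 of 5 animals. Cacna1h lay above Cacna1c in 4 of 5 animals (0.14 ± 0.11, exact p = 0.125), and Cacna1c and Cacna1d were not separated (0.010 ± 0.070, exact p = 0.750). Between the ends of the order, Cacna1e exceeded Cacna1d by 2.59-fold, and its log2 ratio of 1.38 had an SD of 0.022. Only Cacna1g over Cacna1c, at 0.78 ± 0.019, varied less among the 28 pairs. Counting error, from the mean count, was 1.23% of the level for Cacna1e, 3.27% for Cacna1d, 2.37% for Cacna1g and 2.15% for Cacna1c. These smallest SDs of the 28 pairs lie below what counting error alone would give, so they do not show unusually constant ratios.

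These levels depend on the length each count is divided by, since the members' annotated exons go far beyond their coding sequence. The longest coding sequences were alike, from 6537 bases for Cacna1d to 7143 for Cacna1g. The lengths recovered from the deposited tables, which for 6 of the 8 genes lie within 1 base of the union of all annotated exons, ran from 9242 bases for Cacna1d to 21190 for Cacna1c and 24813 for Cacna1e. For Cacna1d the union in GENCODE M21 was longer, at 12621 bases, and for Cacna1e it was 25228. With the union as the length, Cacna1c lay above Cacna1d by a log2 ratio of 0.45 in place of 0.010. With the longest annotated transcript as the length, Cacna1e (14921 bases) stood at 31.0 ± 1.91 RPKM and Cacna1a (7926 bases) at 24.2 ± 1.06, apart from each other and from all other members. On that scale Cacna1e exceeded Cacna1a by 1.28-fold, Cacna1a exceeded Cacna1b by 1.45-fold and Cacna1c exceeded Cacna1d by 1.68-fold, each in 5 of 5 animals. Cacna1c (11.6 ± 0.756 RPKM) then lay above Cacna1h (9.42 ± 0.655) in 5 of 5 animals, the other way round from the main scale, and Cacna1g (15.0 ± 0.784) came close to Cacna1i (15.5 ± 0.837). Cacna1e, Cacna1a and Cacna1b kept the first 3 ranks, and Cacna1d the last, with either length and in counts scaled to library size without a length (CPM).

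**Figure D2:**
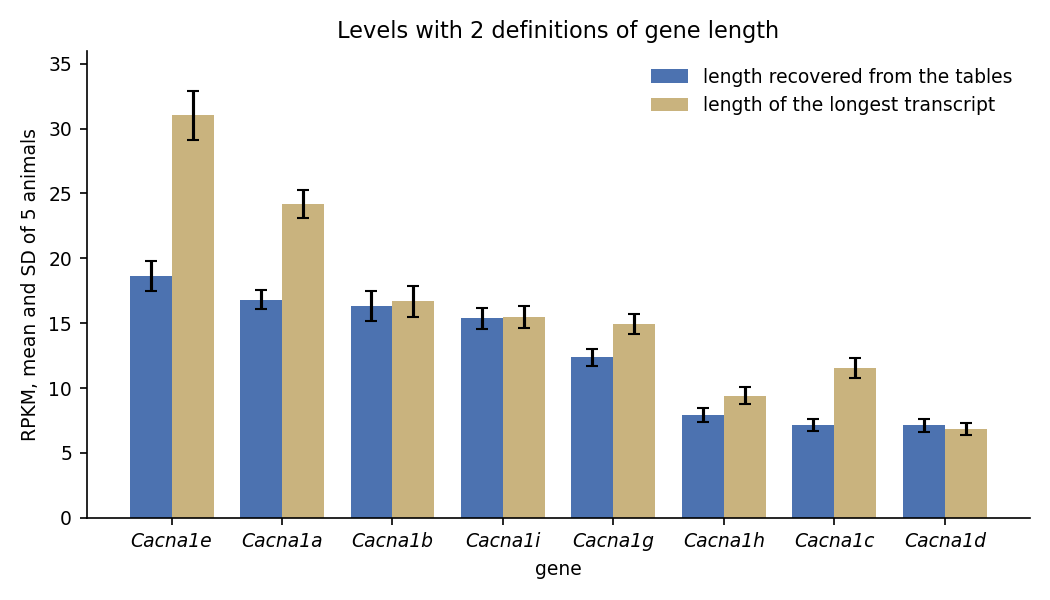
Mean RPKM of each alpha-1 gene (vertical axis, bars, SD over 5 animals as error bars) with the length recovered from the deposited tables (left bar) and with the longest annotated transcript (right bar). Cacna1e moves most between these scales, with 31.0 RPKM with the longest transcript against 18.7 with the recovered length, and Cacna1i barely moves (15.5 against 15.4).

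Summed over the 8 genes, the alpha-1 level was 101.8 ± 4.80 RPKM, with 106.3, 106.8, 100.4, 95.3 and 100.1 RPKM in animals 1 to 5. The P/Q-, N- and R-type genes made up 50.9% ± 0.692 of this sum. The T-type genes made up 35.1% ± 0.964 and the L-type genes 14.1% ± 0.342. The composition was thus close to constant between animals, with the P/Q-, N- and R-type share between 50.04% in animal 1 and 51.8% in animal 2, the T-type share between 33.7% in animal 2 and 36.2% in animal 1, and the L-type share between 13.8% and 14.6%. With the longest transcript as the length, the shares were 55.2%, 30.6% and 14.1%. In the same order, on CPM without a length they were 58.8%, 25.5% and 15.7%.

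Against the 14770 genes that passed the filter on low counts, whose median was 5.80 RPKM, the members lay above the middle. The percentile of the mean RPKM was 80.5 for Cacna1e, 78.1 for Cacna1a, 77.4 for Cacna1b, 76.0 for Cacna1i, 70.8 for Cacna1g, 58.6 for Cacna1h, 55.8 for Cacna1c and 55.6 for Cacna1d. All 8 are long genes. Each spans at least 59.5 kb of the genome, and Cacna1c spans 609.2 kb, where the median of the genes tested was 24652 bases. A span of at least 50 kb was found in 29.9% of the genes tested. All 8 members also had a recovered length of at least 8 kb, as did 14.6% of the genes tested.

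The retinal and the skeletal muscle alpha-1 genes, which are not among the 8, were close to 0. Cacna1f stood at 0.0888 RPKM and Cacna1s at 0.149 RPKM, and neither passed the filter. Of 6 cerebellar markers, 5 did not pass the filter. The Purkinje cell gene Car8 was the highest at 2.66 ± 0.691 RPKM, and the granule cell gene Gabra6 ran from 0 to 1.65 RPKM. Cacna1a is known for strong expression in the cerebellum. The summed cerebellar markers ran from 2.59 to 9.23 RPKM and were highest in animal 4, where Cacna1a was lowest, and their part in its level was not tested. Markers of excitatory neurons (Nrgn 561 ± 60.2, Slc17a7 382 ± 21.99 RPKM) and of inhibitory neurons (Sst 244 ± 15.7, Gad1 56.5 ± 1.02) were present in every animal. In such bulk tissue, fewer cells of a type and less RNA per cell cannot be told apart.

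The spread of the members between animals was not called against genes of like abundance. The coefficient of variation of RPKM was 4.38% for Cacna1a and 7.21% for Cacna1b, with the other 6 between them. The highest animal exceeded the lowest by 1.11-fold for Cacna1a up to 1.22-fold for Cacna1d. With edgeR's quasi-likelihood fit, each gene's dispersion was divided by its abundance trend. None of the 8 members was called more variable (the smallest adjusted p, for Cacna1b, was 0.960, unadjusted p = 0.0849) and none less variable. Of all genes tested, 0.305% were called more variable and 0.0% less variable, and none of the members passed an unadjusted p of 0.05 in either direction, against 5.43% and 5.0% of all genes tested. DESeq2 found none of the 8 to be a dispersion outlier, against 101 of the 14770 genes tested. The log2 ratio to the trend was above 0 for all 8, from 0.14 for Cacna1a to 1.33 for Cacna1b, with a median of 0.93, against 43.4% of all genes tested above 0 and a median of -0.19. For Cacna1a and Cacna1g this ratio was below 0 with DESeq2 (-0.45 and -0.41), and with 1 animal or another left out it was below 0 for every member but Cacna1b and Cacna1c.

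The small deviations were shared by members in part. All 8 genes lay below their own mean in animal 4 (mean deviation -0.094 in log2 CPM) and all 8 above it in animal 1 (mean 0.076, with Cacna1e at 0.0015). Of the 14770 genes tested, 7437 lay above their own mean in animal 1, 7379 in animal 2 and 7517 in animal 4. Low values in animal 4 were not particular to the members. Above their mean there were 0 of 4 beta, 0 of 6 calcium release, 2 of 4 alpha2delta and 4 of 6 gamma genes. Of the 69 auxiliary and pathway genes described below, 21 lay above their mean in animal 4 and 39 in animal 1. In animal 2, Cacna1b (0.13), Cacna1e, Cacna1d, Cacna1c and Cacna1g (0.080) had their highest value. Cacna1h and Cacna1i were instead highest in animal 1 (0.17 and 0.14) and below their mean in animal 2 (-0.047 and -0.053), as was Cacna1a (0.085 in animal 1 and -0.0055 in animal 2). None of these deviations belongs to a called gene. The closest pairs of members in their deviations were Cacna1c with Cacna1g (root mean square difference 0.018), Cacna1b with Cacna1c (0.020) and Cacna1d with Cacna1e (0.020), and the farthest was Cacna1e with Cacna1h (0.11). Counting error of the genes in the closest pairs ran from 1.23% of the level (Cacna1e) to 3.27% (Cacna1d). Differences of 0.018 to 0.020 are smaller than such error alone would give, so they cannot rank these pairs.

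Of the 16 marker lists, 3 are set beside these deviations, picked by no stated rule, and they did not all move the same way. The 5 long nuclear RNAs all lay above their mean in animal 2 (mean deviation 0.17) and averaged -0.13 in animal 4, with Malat1 and Snhg11 the most abundant. Their sum was 277 RPKM in animal 4 and 347 RPKM in animal 2. The 6 striatal markers all lay above their mean in animal 1 (mean 0.25), where Cacna1a, Cacna1h and Cacna1i were highest. All lay below it in animal 4 (mean -0.12), with Penk and Ppp1r1b the most abundant. In animal 2, where Cacna1b, Cacna1c, Cacna1d, Cacna1e and Cacna1g were highest, the striatal markers also averaged -0.12, with 1 of the 6 above its mean. The striatal sum was lowest in animal 4 (276 RPKM) and highest in animal 1 (345 RPKM). The 5 oligodendrocyte genes all lay above their mean in animal 4 (mean 0.20), and their sum was 927 RPKM there, against 748 to 784 RPKM in the other animals. None of the genes in these 3 lists was at 0 in any library. Their part in the members' deviations was not tested. Genes with a length of at least 8 kb, 2163 of those tested, had median deviations of -0.011 in animal 1, where all 8 members lay above their mean, 0.015 in animal 2 and -0.012 in animal 4.

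**Figure D3:**
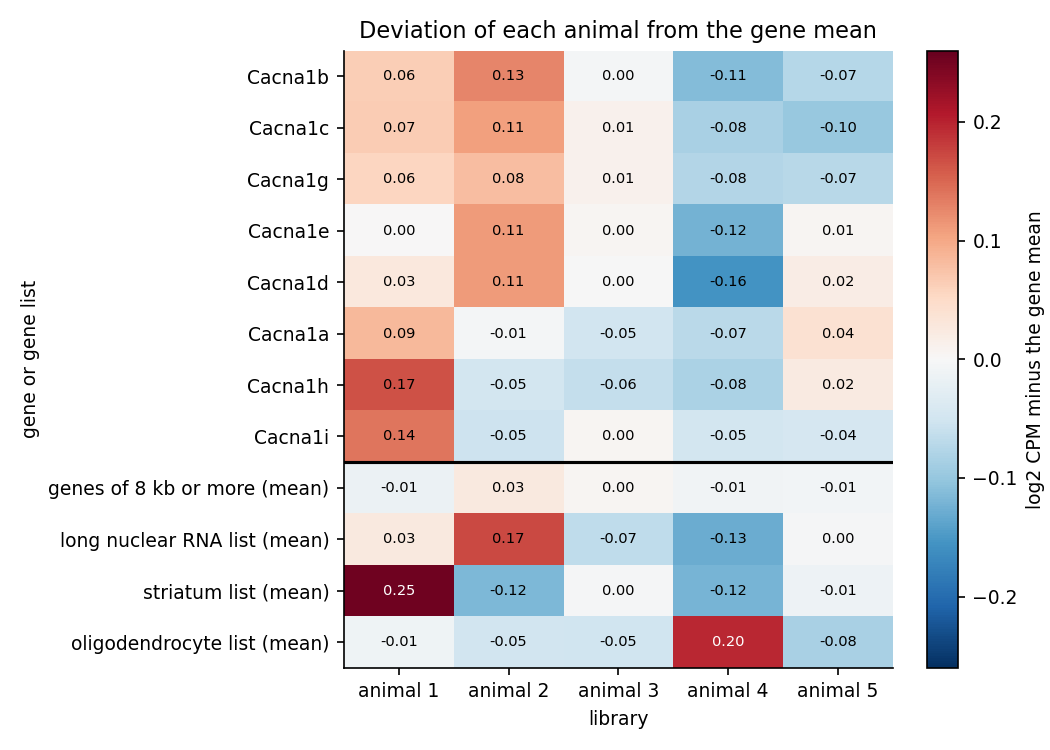
Deviation of each animal (columns) from the gene's mean in log2 CPM (colour, printed in each cell) for the 8 alpha-1 genes above the line, and the mean deviation of gene lists below it. All 8 genes are below 0 in animal 4, and 5 are highest in animal 2. Cacna1a, Cacna1h and Cacna1i are highest in animal 1, as is the striatum list, which averages -0.12 in animal 2.

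The genes tested whose deviations over the 5 animals lay nearest to each member were found by the root mean square difference in log2 CPM, as a description. The nearest to Cacna1i was Bsn, which encodes the active zone scaffold bassoon, at a difference of 0.0037, where Cacna1i itself deviated by 0.073. Next came Crtc1 at 0.012. For Cacna1e they were Ablim3 (0.0056) and Tsr3 (0.0090), and for Cacna1d Dvl2 and Tsr3. For Cacna1a they were Actb and Prkcd, for Cacna1b Stk38 and Sbf2, for Cacna1c Slc50a1 and Zfp111, for Cacna1g Tkfc and Plch2, and for Cacna1h Sema6c and Tor2a, all with differences of 0.0083 to 0.016. With 14770 genes and 5 libraries, near matches to any small pattern can be found.

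Among the auxiliary subunits that join the high-voltage-activated pores, Cacnb3 had the highest level per length. Beta subunits bind the alpha-1 subunit inside the cell and bring it to the membrane. Cacnb3 stood at 68.6 ± 4.54 RPKM, with 71.99, 65.7, 66.1, 64.6 and 74.9 in animals 1 to 5. Cacnb1 stood at 32.3 ± 2.26 RPKM, Cacnb4 at 25.7 ± 0.819 and Cacnb2 at 5.45 ± 0.187, and the ranges of the 4 beta genes did not overlap. Cacnb3 held 51.9% ± 1.14 of the summed beta level with the recovered length, 45.7% ± 1.13 with the union of exons and 47.8% ± 1.07 with the longest transcript. On CPM without a length its share was 32.3% ± 1.06, below the 34.8% ± 1.13 of Cacnb4. The beta sum was 132.1 ± 6.89 RPKM, against 66.1 ± 3.55 RPKM for the 5 high-voltage-activated alpha-1 genes, a ratio of 2.003 ± 0.140. The ratio was 1.83 ± 0.127 with the union of exons and 1.82 ± 0.123 with the longest transcript, but 0.642 ± 0.0422 on CPM, so its direction holds only per length.

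The alpha2delta subunits, outer-surface proteins that include the targets of gabapentin-like drugs, summed to 70.3 ± 2.82 RPKM with the recovered length. Their ratio to the high-voltage-activated alpha-1 sum had no stable side of 1, at 1.06 ± 0.0527 with that length, 0.768 ± 0.0335 with the union of exons, 0.985 ± 0.0460 with the longest transcript and 0.477 ± 0.0234 on CPM. Cacna2d3 stood at 36.98 ± 2.80 RPKM, with 36.6, 37.5, 34.9, 34.5 and 41.5 in animals 1 to 5. Cacna2d1 followed at 20.3 ± 1.08 and Cacna2d2 at 12.7 ± 1.16 RPKM, and these 3 did not overlap. This order also depends on the length. Cacna2d3 stood at 15.7 ± 1.19 RPKM with the union of exons, below Cacna2d1 at 20.3 ± 1.08, and on CPM it was below Cacna2d1 as well (136.6 ± 10.3 against 252 ± 13.4). With the longest transcript their ranges overlapped (Cacna2d3 36.98 ± 2.80, Cacna2d1 33.9 ± 1.80 RPKM). Cacna2d2 was lowest in animal 5 (10.7 RPKM, against 12.7 to 13.7 in the others; edgeR adjusted p = 0.744 for its spread), and Cacna2d4 stood at 0.317 ± 0.0226 RPKM.

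The gamma family includes proteins first found with muscle calcium channels, and several that act mainly on AMPA receptors. Cacng3 (32.2 ± 2.60 RPKM), Cacng4 (18.4 ± 0.372) and Cacng2 (18.2 ± 0.623), which belong to the AMPA receptor regulators, had the highest levels with the recovered length. Cacng5 stood at 4.99 ± 0.393, Cacng7 at 4.26 ± 0.632 and Cacng8 at 3.70 ± 0.180 RPKM. Cacng1, the gamma subunit of skeletal muscle, and Cacng6 did not pass the filter, with means of 4.40 and 0.200 counts.

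**Figure D4:**
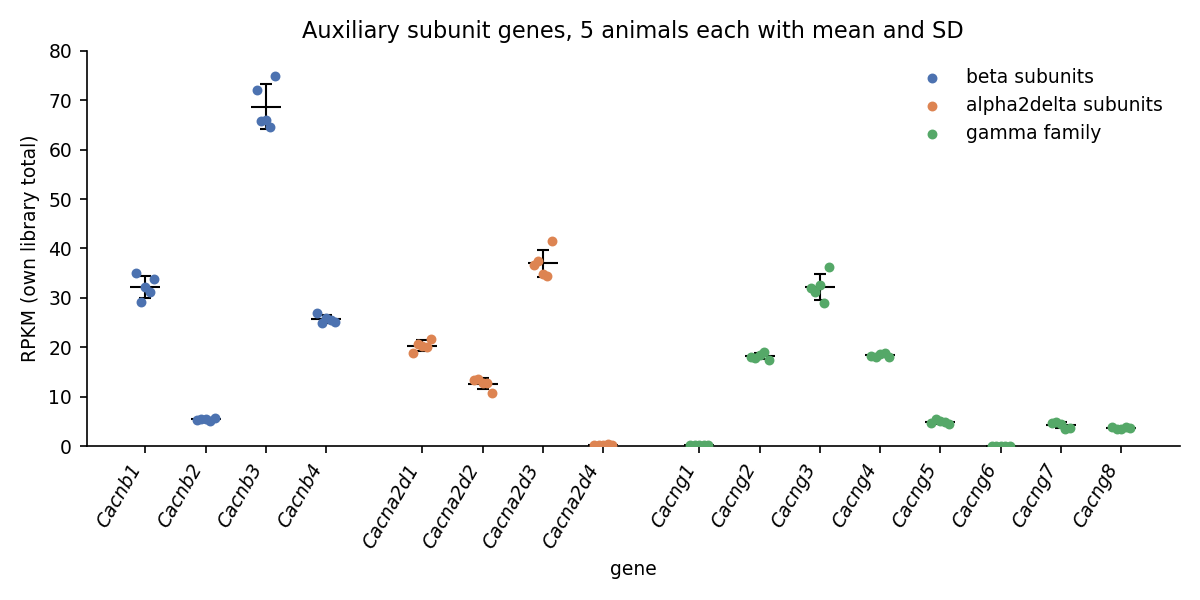
RPKM with the recovered length of the beta, alpha2delta and gamma genes (vertical axis) in the 5 animals (points), with the mean and SD in black. Cacnb3 stands highest, with all 5 animals between 64.6 and 74.9 RPKM, and Cacna2d4, Cacng1 and Cacng6 lie near 0.

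Other genes of calcium signalling came from 7 further lists, with levels given as RPKM with the recovered length only. Among pores related to the members, the sodium leak channel Nalcn stood at 21.8 ± 1.03 RPKM, Catsper2 at 0.969 ± 0.202 and Catsper1, a sperm channel, had no count. Among regulators of the channels, Cbarp, known to reduce calcium channel activity, stood at 59.4 ± 2.36, Stac2 at 30.7 ± 2.31 and the calcium sensor Cabp1 at 17.8 ± 0.741 RPKM. Of partners at the active zone, the membrane fusion gene Snap25 stood at 369 ± 15.5 RPKM and Stx1a at 76.9 ± 4.76 RPKM. Kcnma1, the large-conductance potassium channel opened by calcium, reached 18.7 ± 1.08 RPKM, against 4.71 ± 0.412 for Kcnn3 and 4.02 ± 0.207 for Kcnn1. The release channels of internal stores were led by Itpr1 (49.1 ± 2.01), Ryr2 (19.7 ± 1.24) and Ryr3 (4.70 ± 0.482). Calcium removal was represented by the pumps Atp2a2 (208 ± 7.98) and Atp2b1 (110.9 ± 5.37) and the exchanger Slc8a2 (77.6 ± 3.63 RPKM). Of the store-operated entry genes, Stim1 stood at 26.1 ± 0.674, Stim2 at 17.0 ± 0.722 and Orai3 at 7.99 ± 0.660 RPKM.

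None of these genes was called for its spread between animals. Of the 78 genes in the 10 auxiliary and pathway lists, 69 passed the filter, and edgeR called none more variable and none less variable, where 0.305% and 0.0% of all genes tested were called. At an unadjusted p of 0.05, 5 of the 69 were more and 4 less variable, against 5.43% and 5.0% of all genes tested. DESeq2 found no dispersion outlier among them, against 101 of the 14770 genes tested. The median log2 ratio to the trend was 0.23 over the 69 genes, against -0.19 over all genes tested and 0.93 over the 8 members. By list, the median was 0.55 for the beta, 1.01 for the alpha2delta and -0.37 for the gamma genes.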

How the data were processed

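The submitters' processing notes name CASAVA 1.7, STAR 2.4.1d, featureCounts 1.4.6-p4 and the build GRCm38. Which annotation release and strand setting they used, and how multi-mapping reads were treated, is not given in the sources used here. Counts per gene were used as deposited, in whole numbers, for 47729 genes. The RPKM values the authors deposited follow from these counts if the 5 library totals are recycled from entry to entry. Of 117232 nonzero values, 100.0% were then recovered (tolerance 0.0011 RPKM plus a relative 0.0002). Each gene's length was solved from its entry with the highest count under the recycled totals, so that entry was recovered by construction. With the same lengths and each library's own total, 21.2% were recovered, and lengths were not solved anew for own totals. RPKM was therefore recomputed with own totals and the lengths these tables imply, and the deposited RPKM is an alternative. The labels name no molecular identifiers, so depth gives counting error only.

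Symbols and positions came from GENCODE M21 (GRCm38), which matched 47224 IDs. All genes were fitted in R 4.3.3 by edgeR 4.0.16 (filterByExpr, TMM, robust quasi-likelihood, intercept only; 14770 genes). Each dispersion over its trend was tested against an F distribution (4 and 15.3 degrees of freedom), separately for the upper and the lower tail, with Benjamini-Hochberg adjustment over all genes at 0.05. DESeq2 1.42.0 and limma 3.58.1 gave alternatives. Deviations are log2 CPM after TMM scaling, with a prior count of 2. Animals were numbered in accession order, which pairs nothing.

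The members, gene lists and tests were chosen with earlier results of these data known. Genes named are the members, all beta, alpha2delta and gamma genes, the 3 highest of each other list by mean RPKM, the 2 nearest genes of each member and the 2 highest of a marker list, except that some of these genes are not reported here. Cacna1f, Catsper1, Gabra6, called marker genes and genes overlapping members were named after their values were seen.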

Additional observations from a re-analysis of the deposited data

Results flagged for a closer look

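Of 25 sets of 5 animals examined for a single outlying animal (the 8 members, the 3 subfamily shares and 14 auxiliary genes), 1 stood out, and chance gives about 1 in 20. Cacna1i reached 16.8 RPKM in animal 1, apart from the next value of 15.3 and the lowest of 14.8, a gap of 0.757 of the whole range. The striatal markers were also highest in animal 1, with a sum of 345 RPKM, and their part was not tested.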

How the results depend on the processing

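No member was called more or less variable under any alternative run. Neither was any of the 69 genes of the 10 auxiliary and pathway lists that passed the filter. Listed genes below the filter were not looked up in the run without it. Of all genes, 45 were called more variable, against 249 with no low-count filter, 19 without the robust option, 10 and 27 with limma on recomputed and on deposited RPKM, 101 as DESeq2 dispersion outliers and 18 to 44 without 1 animal (18 without animal 5, 26 without animal 3); 0 were called less variable, against 25 with no filter. The members' log2 ratio to the trend, never called, changed sign as follows. On deposited RPKM, limma gave -2.78 for Cacna1a, -0.50 for Cacna1c, -0.14 for Cacna1e, -0.47 for Cacna1g, -0.21 for Cacna1h and -1.19 for Cacna1i, and with limma on recomputed RPKM -0.36 for Cacna1a and -0.075 for Cacna1g. For Cacna1a it was -0.098 with no filter and -0.45 with DESeq2, and for Cacna1g -0.41 with DESeq2. Without 1 animal it ran from -0.53 to 0.59 for Cacna1a, -1.10 to 1.36 for Cacna1d, -0.18 to 1.71 for Cacna1e, -0.036 to 0.51 for Cacna1g, -1.19 to 1.59 for Cacna1h and -2.32 to 1.25 for Cacna1i. A ratio above 0 in all 8 members is thus not stable, and the cause was not tested.

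The count of pairs with 1 order in all animals was 24, and from 22 on deposited RPKM to 27 on CPM in the alternatives, of 28 possible. A pair with the reverse order in all animals also counts, as Cacna1h over Cacna1c does with the longest transcript. The count therefore cannot show whether the order itself held. With RLE size factors, 15 of the 16 nearest genes were the same. Cacna1h over Cacna1c turned to -0.97 on CPM and -0.29 with the longest transcript, Cacna1g over Cacna1c to -0.28 and Cacna1i over Cacna1c to -0.0042 on CPM, where the change is the division by length itself. Cacna1c over Cacna1d ran from -0.0075 without animal 4 to 0.039 without animal 5. The P/Q-, N- and R-type share was 51.7% with the union of exons, 58.8% on CPM and 55.2% with the longest transcript, an alternative added after seeing the data. The T-type share was 25.5% on CPM and 30.6% with the longest transcript, and the L-type share 12.5% with the union of exons and 15.7% on CPM. Alternatives for the auxiliary subunits were also added after seeing the data: the ratio of the beta to the high-voltage-activated alpha-1 sum was 1.83 with the union of exons, 1.82 with the longest transcript and 0.642 on CPM, and that of the alpha2delta sum 0.768, 0.985 and 0.477 on the same scales. Without 1 animal they were 1.97 to 2.06 and 1.05 to 1.08. Samples could not be paired because all form 1 group, and the only pairing was of genes within an animal.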

Other observations

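Sums of brain region markers differed in how far they ranged between animals. The summed hypothalamic markers ran from 38.8 RPKM in animal 5 to 80.6 RPKM in animal 2, and the brainstem markers from 1.77 RPKM in animal 5 to 9.06 RPKM in animal 4. The summed thalamic markers, from a region known for T-type channels, ran from 57.7 to 61.9 RPKM. The hippocampal sum ran from 63.5 to 65.5 RPKM, and Wfs1 alone stood at 42.7 ± 1.49 RPKM. Such sums can hide genes that move in opposite directions. The highest animal exceeded the lowest by a median of 1.15-fold for the thalamic and 1.17-fold for the hippocampal genes, against 1.19-fold over all genes tested (CPM after TMM scaling). Among the marker lists, edgeR called more variable than the trend the hormone genes Avp and Oxt (2 of 6 hypothalamic genes tested). The brainstem genes Slc6a5 and Tph2 (2 of 3 tested) and the striatal gene Adora2a (1 of 6) were called as well. So were the interneuron gene Pvalb (1 of 6 inhibitory neuron genes) and the endothelial gene Slc2a1 (1 of 5). No other marker list had a called gene, and none was called less variable. Of all genes tested, 0.305% were called more variable and 0.0% less variable.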
